A study of Mus musculus with 16 samples.

Results

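The regions described here are 812 H3K9me3 peaks of quiescent hair follicle stem cells (HFSCs), out of the 1414 peaks in that list. They were selected on the peak calls themselves: each is a peak of LC-HFSCs, the bulge stem cells of late catagen, that shares no base with any of the 42277 H3K9me3 peaks of EA-HFSCs, the same cells in early anagen. They make up 57.4% of the LC-HFSC list (95% Wilson interval 54.8 to 60.0%), and the other 602 LC-HFSC peaks overlap an EA-HFSC peak. The share depended on the definition: it was 87.7% when 50% of the LC-HFSC peak had to be covered, 98.8% with equally long lists and 32.1% among LC-HFSC peaks scoring at least 100. The first set is called the LC-only peaks and the second the shared peaks, with both names referring to HFSCs alone. The series maps 3 trimethylation marks of histone H3 by ChIP-seq in 4 populations sorted from the skin of male CD1 x FVB wild-type mice. EA-HFSCs (PD22 to PD25) and LC-HFSCs (PD38 to PD44) were sorted as CD34+/α6-integrin+ cells, and non-EA-HFSCs and non-LC-HFSCs, at the matching ages, as CD34-/α6-integrin+ cells. Cells of several mice were combined for each preparation, and chromatin was cut to single nucleosomes with micrococcal nuclease. The study's methods name antibodies of 2 makers for the H3K9me3 precipitation, without saying which was used in which population. The authors pooled independent experiments before calling peaks, with each population's own IgG library as control. Each combination of population and mark is thus 1 list, no spread between replicates can be given, and populations were compared without a test. Age, hair cycle stage and sequencing library change together between the anagen and catagen lists and cannot be told apart.

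H3K9me3 is the hallmark of constitutive heterochromatin. It is written by enzymes such as SETDB1 and the SUV39H pair and is bound by HP1 proteins, and it lies over satellite repeats, endogenous retroviruses and other silenced DNA. KRAB zinc finger proteins, whose C2H2 fingers read DNA, bring SETDB1 to their targets through TRIM28, and the tandem clusters of genes that encode these proteins carry H3K9me3 themselves, mainly over the exons that encode the fingers.

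The 7 sequences shown are from the highest-scoring LC-only peaks that lie on placed chromosomes and share no sequence with a higher one. Each is the middle of the peak on the plus strand of mm9, 300 bases long, with the exception of the peak in Zfp286. That peak touches an annotated untranslated region and is shown by 30 bases around a motif. Capitals mark TGTGGNAAA on either strand, the stretch that encodes cysteine, glycine and lysine in many C2H2 fingers. The motif falls within the shown window of the Zfp286 peak alone, which holds 2 copies in its middle 300 bases and 5 in its middle 2 kb. The CpG content of the windows runs from 0 CpG in the Zfp936 peak to 11 in the chromosome 5 peak, and the GC content from 31% in Zfp936 to 48.7% in the chromosome 5 peak.
LC-only peak at chr13:13021395-13021694: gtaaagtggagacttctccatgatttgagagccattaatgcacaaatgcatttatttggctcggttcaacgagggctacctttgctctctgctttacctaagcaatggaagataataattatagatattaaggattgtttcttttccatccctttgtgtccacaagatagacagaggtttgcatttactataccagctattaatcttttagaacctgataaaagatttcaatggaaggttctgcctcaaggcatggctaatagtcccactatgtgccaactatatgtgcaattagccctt
LC-only peak at chr5:138657877-138658176: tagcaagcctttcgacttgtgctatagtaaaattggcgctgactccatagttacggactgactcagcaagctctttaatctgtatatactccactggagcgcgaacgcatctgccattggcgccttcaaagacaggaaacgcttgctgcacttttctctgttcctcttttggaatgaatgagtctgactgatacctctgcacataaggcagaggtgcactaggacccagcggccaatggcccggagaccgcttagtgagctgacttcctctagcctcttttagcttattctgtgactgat
LC-only peak, Zfp286 at chr11:62593409-62593438: ggctgaatgtTTTCCCACAttcgttacatt
LC-only peak at chr1:58564947-58565246: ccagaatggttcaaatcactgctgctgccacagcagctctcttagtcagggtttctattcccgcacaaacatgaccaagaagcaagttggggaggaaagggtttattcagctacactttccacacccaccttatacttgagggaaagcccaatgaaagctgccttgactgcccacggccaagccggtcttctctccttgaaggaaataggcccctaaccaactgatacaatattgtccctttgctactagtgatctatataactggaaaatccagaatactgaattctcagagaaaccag
LC-only peak, Zfp759 at chr13:67237450-67237749: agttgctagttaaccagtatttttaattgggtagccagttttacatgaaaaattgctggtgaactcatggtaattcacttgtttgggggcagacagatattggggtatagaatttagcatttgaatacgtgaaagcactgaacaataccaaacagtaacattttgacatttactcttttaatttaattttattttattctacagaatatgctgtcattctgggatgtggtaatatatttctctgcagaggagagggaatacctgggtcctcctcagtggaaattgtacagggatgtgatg
LC-only peak, Zfp942 at chr17:22084481-22084780: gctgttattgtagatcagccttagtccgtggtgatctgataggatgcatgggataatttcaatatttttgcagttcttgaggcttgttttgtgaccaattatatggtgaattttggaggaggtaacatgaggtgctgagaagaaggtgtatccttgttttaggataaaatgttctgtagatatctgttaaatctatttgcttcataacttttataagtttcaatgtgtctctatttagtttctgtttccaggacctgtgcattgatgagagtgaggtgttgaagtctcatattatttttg
LC-only peak, Zfp936 at chr7:50442867-50443166: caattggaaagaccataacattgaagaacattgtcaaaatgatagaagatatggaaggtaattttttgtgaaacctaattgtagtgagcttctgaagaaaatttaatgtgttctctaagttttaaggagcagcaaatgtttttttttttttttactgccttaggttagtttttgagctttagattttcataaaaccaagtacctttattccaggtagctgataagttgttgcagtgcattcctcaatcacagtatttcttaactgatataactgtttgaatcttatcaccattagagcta

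Before the comparisons, the lists themselves stand apart in length. The H3K9me3 list of LC-HFSCs has 1414 peaks, whereas that of EA-HFSCs has 42277, that of non-EA-HFSCs 17873 and that of non-LC-HFSCs 18236, and the lowest score in each is close to 40. MACS scores a peak by the negative log10 of its p-value, multiplied by 10. Since this depends on read number and background, scores are compared only within a list. The number of reads behind a peak is not part of the lists. The study describes H3K9me3 detection as unsaturated at its read numbers, and the LC-HFSC library as the deeper of the pair, which bears on every missing EA-HFSC call. The labelled identity was checked with H3K4me3 peaks within 3000 bp of the starts of marker genes. In EA-HFSCs and LC-HFSCs, 7 of 8 bulge markers had such a peak, Cd34 among them, and Cd34 had none in either CD34- population. The 8th, Itga6, encodes the α6-integrin used in every gate and had no such peak in any of the 4 lists. Of the same 8 markers, 6 had a peak in non-EA-HFSCs and 5 in non-LC-HFSCs, so the set as a whole hardly separated the gates. Of the 4 leukocyte markers, only Cd79a in non-LC-HFSCs was marked, and neither of the 2 endothelial markers was marked in any list. Of the 3 melanocyte markers, Dct was marked in the 3 lists other than non-LC-HFSCs, and Mlana and Tyr in none. In every list, 2 or 3 of the 3 fibroblast markers were marked. Both Krt5 and Krt14, basal keratins of the epidermis, were marked in all 4 lists, as 2 of 3 basal markers, and Trp63 in none. The part of cells other than bulge cells in the LC-only peaks was not tested.

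LC-only peaks were narrower and lower-scoring than shared peaks. Their median width was 1503 bp (range 355 to 9807 bp) and they cover 1.39 Mb, compared with a median of 1866 bp and 1.36 Mb for the 602 shared peaks. The median score was 50.4 (range 40.07 to 444.58) against 59.8, and 63 LC-only peaks (7.76%, 6.11 to 9.80%) had a score of at least 100, against 133 shared peaks (22.1%). A wider peak has more bases on which to meet another peak, so the width also enters the rule. Where an EA-HFSC peak did overlap an LC-HFSC peak, it covered a median of 37.8% of it.

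A missing EA-HFSC peak at the very bases of the LC-HFSC peak did not mean a distant one. The median distance of an LC-only peak to the nearest EA-HFSC H3K9me3 peak was 5968 bp, whereas it was 30724 bp for the 1278680 tiles of 2 kb into which the sequenced genome was cut. An EA-HFSC peak lay within 1 kb of 128 LC-only peaks (15.8%), within 10 kb of 506 (62.3%, 58.9 to 65.6%) and within 100 kb of 772 (95.1%). The same distances held 7.03%, 25.3% and 79.0% of the tiles, with tiles on a peak included. At the inner edge of the rule, the nearest EA-HFSC peak began 6 bp from an LC-only peak on chromosome 5 (110096779 to 110098102, score 60.16), and 14 and 16 bp from LC-only peaks on chromosome 13 (62741042 to 62743181, score 66.34) and chromosome 11 (27031140 to 27032848, score 44.06). Just outside it, shared peaks met an EA-HFSC peak by 7 bp on chromosome 10 (82876638 to 82878384, score 50.89), by 18 bp on chromosome 6 (95533925 to 95535596, score 58.35) and by 19 bp on chromosome 17 (17461189 to 17462402, score 50.04). The peaks named here on either side of the edge had overlapping scores, but scores near the edge were not compared as a whole. The name LC-only holds for the called bases and not for the neighbourhood.

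**Figure D1:**
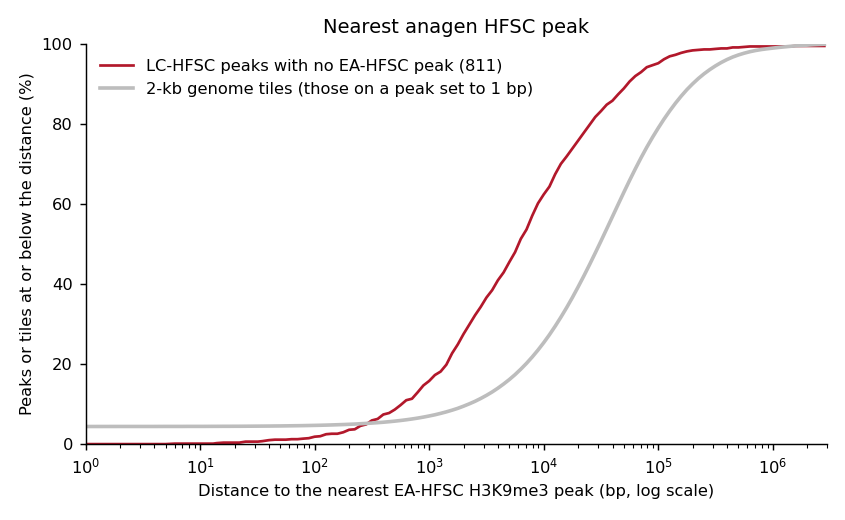
Cumulative share (%, vertical axis) of LC-only peaks and of 2-kb genome tiles that lie within a given distance of the nearest EA-HFSC H3K9me3 peak (bp, log scale). The curve of the 811 LC-only peaks on a sequence with an EA-HFSC peak crosses 62.3% at 10 kb, where that of the tiles reaches 25.3%.

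In the lists as deposited, most LC-only peaks met an H3K9me3 peak of anagen cells outside the CD34+ gate. Of the 812 peaks, 682 (84.0%, 81.3 to 86.4%) overlapped a non-EA-HFSC peak, although the rule had left them without one in EA-HFSCs of the same age. The share was 92.2% (555 of 602) for shared peaks, 87.5% for all LC-HFSC peaks and 2.15% for genome tiles. Of the LC-only peaks, 355 (43.7%, 40.3 to 47.2%) overlapped a non-LC-HFSC peak, the population of the same age, against 69.3% (417 of 602) of shared peaks, 54.6% of all LC-HFSC peaks and 1.77% of tiles. Both shares were thus far above those of the tiles and below those of shared peaks, with intervals that do not meet. With the 1414 top-scoring peaks of each list, which leaves 1397 LC-only peaks, they were 49.7% and 20.1%. When 50% of a peak had to be covered, in the rule as well, 1240 peaks were LC-only, and 22% of these lay on non-LC-HFSC peaks. Among the 63 LC-only peaks scoring at least 100 that share was 76.2%. Split into classes, 328 LC-only peaks (40.4%) lay on a peak of both non-HFSC populations, 354 (43.6%) on one of non-EA-HFSCs alone, 27 (3.33%) on one of non-LC-HFSCs alone and 103 (12.7%, 10.6 to 15.2%) on neither. Among shared peaks the corresponding counts were 396, 159, 21 and 26, so 4.32% (2.96 to 6.25%) were on neither list. A call in LC-HFSCs and in no other population was therefore made at 103 of 1414 sites.

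**Figure D2:**
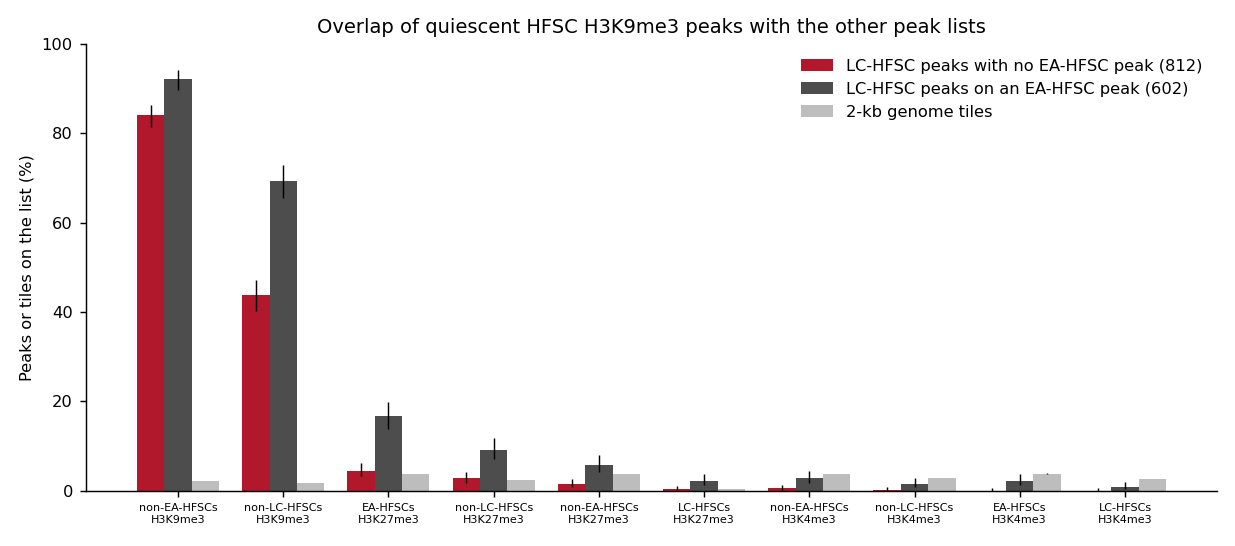
Share (%, vertical axis) of LC-only peaks, of shared peaks and of 2-kb genome tiles that overlap each of the other peak lists by at least 1 bp, with 95% Wilson intervals. On non-EA-HFSC H3K9me3 the LC-only peaks stand at 84.0% and on non-LC-HFSC H3K9me3 at 43.7%, and on every H3K4me3 and H3K27me3 list below 5%.

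The 2 non-HFSC lists also met the LC-only peaks in different ways. Where non-EA-HFSCs had a peak, their peaks covered a median of 98.5% of the LC-only peak, and 442 LC-only peaks were covered to at least 90%. Peaks of non-LC-HFSCs covered a median of 44.6%, and only 10 LC-only peaks were covered to at least 90%. The peaks of the lists differ in width, with a median of 1072 bp in non-EA-HFSCs and 578 bp in non-LC-HFSCs. The 716 non-EA-HFSC peaks on LC-only peaks had a median score of 161 within their list, compared with 60.8 for its other peaks, and 352 of them (49.2%) were in the top 10% of the list by score. LC-only peaks thereby accounted for 19.7% of the top 10% of the non-EA-HFSC list and 1.01% of its lowest 10%. The 440 non-LC-HFSC peaks on LC-only peaks had a median score of 56.6 against 49.5, with 120 (27.3%) in the top 10%. As a background, an EA-HFSC peak was present at 17.8% of all non-EA-HFSC peaks and at 23.7% of all non-LC-HFSC peaks.

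The overlap rose with the score of the LC-only peak. In 4 equal groups of 203 peaks, from the lowest to the highest scores, the share on a non-EA-HFSC peak was 74.9%, 81.8%, 88.2% and 91.1%. The share on a non-LC-HFSC peak was 30.5%, 38.9%, 45.8% and 59.6%. The median width increased along the same groups from 1257 bp to 2251 bp, and its part in the rise was not tested. The median score was 56.3 for peaks on both lists, 49.0 on non-EA-HFSCs alone, 47.0 on non-LC-HFSCs alone and 46.1 on neither.

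The strongest LC-only peak was also the widest, a region of 9807 bp on chromosome 13 (13016642 to 13026448) with a score of 444.58. It lay between genes, 76114 bp from the start of Prl2c2, a gene of the prolactin family, with peaks in both non-HFSC populations (scores 1537.72 and 148.56 in their own lists) and the nearest EA-HFSC peak at 4083 bp. A peak on chromosome 5 (138656236 to 138659817, score 191.38) also lay between genes and in both non-HFSC lists. Of the 10 highest-scoring LC-only peaks, 1 of which is not described here, 8 lay on both lists. The exceptions were the peak in Zfp286 on chromosome 11 (62591357 to 62595681, score 160.75), found in non-EA-HFSCs alone, and the peak in an intron of Zfp942 on chromosome 17 (22082925 to 22086337, score 142.35), found in non-LC-HFSCs alone. Also among these 10 were peaks near Orc2 on chromosome 1 (score 156.07), on unplaced sequence (score 151.17), in introns of Zfp759 on chromosome 13 (score 150.50) and Zfp936 on chromosome 7 (score 141.51), and 25106 bp from the start of Zfp607 on chromosome 7 (score 140.19). In 5 of the 10 the gene that held the peak or had the nearest start has a symbol that begins with Zfp. The same count was not made for all LC-only peaks, for shared peaks or for tiles.

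Peaks in a single class differed in strength. After Zfp286, the highest-scoring peaks on non-EA-HFSCs alone lay between genes on chromosome 5 (109537860 to 109541234, score 139.68) and chromosome 17 (22858427 to 22861256, score 137.86). After Zfp942, those on non-LC-HFSCs alone lay on chromosome 4 (146892440 to 146895421, score 121.06) and chromosome 12 (20273639 to 20276570, score 86.47). The highest-scoring LC-only peak on neither list lay on chromosome 13 (12948806 to 12954488, score 120.48), 5683 bp wide and in the same cluster as the strongest LC-only peak of all. The next 2 on neither list were on unplaced sequence, with scores of 107.58 and 89.49.

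LC-only peaks rarely met H3K4me3 and met H3K27me3 at about the rate of the genome. No LC-only peak (0 of 812, which allows a share of up to 0.369%) overlapped an H3K4me3 peak, the mark of active promoters, in EA-HFSCs or in LC-HFSCs, and 4 did in non-EA-HFSCs and 1 in non-LC-HFSCs. Of genome tiles, 3.79% were on an H3K4me3 peak of EA-HFSCs, 2.60% on one of LC-HFSCs, 3.68% on one of non-EA-HFSCs and 2.87% on one of non-LC-HFSCs. For H3K27me3, the mark of Polycomb repression, 36 LC-only peaks (4.43%, 3.22 to 6.08%) lay on a peak of EA-HFSCs, close to the 3.77% of tiles, and 3 (0.369%) on one of LC-HFSCs, against 0.419% of tiles. In non-EA-HFSCs there were 12 (1.48%, tiles 3.75%) and in non-LC-HFSCs 22 (2.71%, tiles 2.30%). Shared peaks were on the H3K27me3 list of EA-HFSCs more often, with 100 of 602 (16.6%, 13.9 to 19.8%). The LC-only share on H3K27me3 was thus near that of the tiles in both HFSC lists and in non-LC-HFSCs and below it in non-EA-HFSCs.

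LC-only peaks were spread unevenly over the genome. There were 755 on the 19 autosomes, 5 on chromosome X and 52 on unplaced sequence. Chromosomes 13 and 17 held the most, with 90 peaks (0.748 per Mb) and 74 peaks (0.777 per Mb). Chromosome 13 thus held 11.1% of LC-only peaks and 4.53% of the length, whereas 5.20% of EA-HFSC peaks lay there. The concentration was that of the whole LC-HFSC list, which has 165 peaks on chromosome 13 and 154 on chromosome 17, and LC-only peaks were 54.5% and 48.1% of these. Chromosomes 7, 10 and 12 followed with 59, 54 and 50 peaks. Chromosome 19 had 6 peaks (0.0978 per Mb) and chromosome X 5 (0.0300 per Mb), and the LC-HFSC list holds only 6 peaks on X in all. On the unplaced sequence of chromosome Y all 19 LC-HFSC peaks were LC-only, although EA-HFSCs had 33 peaks on the same sequence. The non-EA-HFSC list had 134 peaks there and the non-LC-HFSC list 17.

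**Figure D3:**
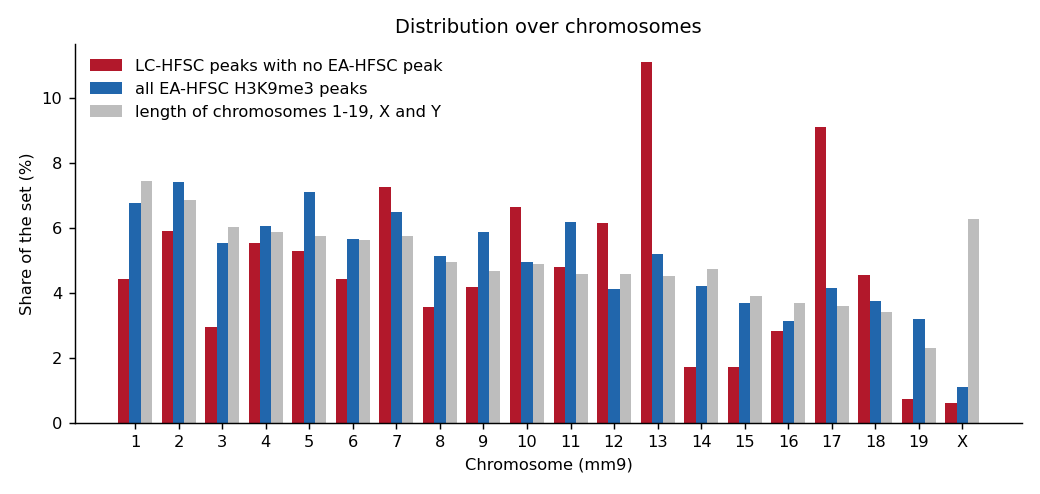
Share (%, vertical axis) of LC-only peaks, of all EA-HFSC H3K9me3 peaks and of sequence length on each chromosome of mm9, without unplaced sequence and chromosome Y. Chromosomes 13 and 17 stand out with 11.1% and 9.11% of LC-only peaks, and chromosome X with 0.616%.

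By their middle, 525 of the 760 LC-only peaks on placed chromosomes (69.1%, 65.7 to 72.3%) lay between protein-coding genes, 185 (24.3%) in introns, 26 in other exons, 12 in 3′ UTRs, 3 in 5′ UTRs and 9 (1.18%) in promoters, here 1000 bp before to 100 bp after a transcript start. Of the genome, 60.5% lies between these genes and 1.83% in promoters. Promoters held 11.3% of EA-HFSC peaks, whereas shared peaks resembled LC-only peaks with 2.06%. Of shared peaks, 60.4% lay between genes. The peaks on neither non-HFSC list were placed similarly, with 67.7% between genes.

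Genes of C2H2 zinc finger proteins, defined as the 568 genes with at least 3 finger matches in a coding sequence, held 89 LC-only peaks (11.7%, 9.61 to 14.2%) in 66 genes. The share was 18.7% for shared peaks, 2.08% for EA-HFSC peaks and 0.764% for tiles. Within 50 kb of such a gene lay 205 LC-only peaks (27%, 23.9 to 30.2%). At that distance the share was 37.2% for shared peaks, 5.26% for EA-HFSC peaks and 2.26% for tiles. By symbol alone, zinc finger genes held 58 LC-only peaks (7.63%), against 13.7% of shared peaks, 1.36% of EA-HFSC peaks and 0.434% of tiles. Clustered protocadherins, adhesion molecules of neurons, held 8 in 2 genes (1.05%, 0.534 to 2.06%), against 3.60% of shared peaks and 0.0196% of tiles. Olfactory receptors, vomeronasal receptors, X- and Y-linked testis families, defensins, Ugt genes, Cyp genes, serpins, keratins and Hox genes held 0 of 760, which allows a share of up to 0.395%. These families take between 0.00798% (defensins) and 0.142% (vomeronasal receptors) of tiles, so at this number of peaks a count of 0 does not set them apart from the genome.

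Inside C2H2 genes the LC-only peaks lay nearer the gene end than in other protein-coding genes. The position of the fingers and the length of the last exons were not taken into account. Their middle was at a median of 64.7% of the gene from its start (quartiles 38.5 and 85.0%), and 36 of 89 (40.4%, 30.9 to 50.8%) lay on the last exon. In other protein-coding genes the median was 44.0%, and 15 of 142 (10.6%, 6.51 to 16.7%) lay on the last exon. The start of most of these genes carried H3K4me3: of the 66 C2H2 genes with an LC-only peak in the body, 53 (80.3%, 69.2 to 88.1%) had an H3K4me3 peak within 3000 bp of the start in LC-HFSCs and 54 in EA-HFSCs. All 568 C2H2 genes had it in 69.9% of cases in LC-HFSCs, and all 22367 protein-coding genes in 53.9%. The other 118 genes with an LC-only peak had it in 61.0% (52.0 to 69.3%).

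Among single genes, 66 had either at least 2 LC-only peaks in the body or one within 3000 bp of the start, and 28 of them were C2H2 genes. Of all 22367 protein-coding genes, 568 are C2H2 genes. The same rule was not applied to shared peaks, of which a larger share lay in C2H2 genes (18.7% against 11.7%). Of the 25 with the highest-scoring peaks, 14 were C2H2 genes, and 14 had H3K4me3 at the start in EA-HFSCs and 13 in LC-HFSCs. Zfp942, with 11 fingers, held 3 LC-only peaks in its body and also 10 EA-HFSC peaks. Zfp936, with 11 fingers, had an LC-only peak over its start, 1 EA-HFSC peak and no H3K4me3 at the start. Gm13152, with 7 fingers, held 4 LC-only peaks, 1 EA-HFSC peak and 5 non-EA-HFSC peaks. Zfp68, Zfp58 and Zfp458, with 9, 14 and 20 fingers, each held 2 LC-only peaks and had H3K4me3 at the start in both HFSC lists. Zfp87, with 15 fingers, held 1, at the same site as one of those in Zfp58, which it overlaps. AW146154, AI987944, Gm10778, Gm7221 and 9830147E19Rik, all C2H2 genes, held 2 each. AU041133 and 2410141K09Rik, with 14 and 3 fingers, held 1 each within 3000 bp of the gene start.

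Outside the zinc finger genes, the most LC-only peaks in one gene were the 6 in Pcdhgc5, whose annotated body spans the gamma protocadherin cluster and also holds 44 EA-HFSC peaks. Ttn, which encodes the giant muscle protein titin, held 4 LC-only peaks, the highest with a score of 110.17, along with 11 EA-HFSC peaks and no H3K4me3 at its start. Trim24, a transcriptional cofactor of the TRIM family, held 3 LC-only peaks, all of them found in non-EA-HFSCs alone, and had H3K4me3 at its start. The start of Orc2, a subunit of the origin recognition complex, had an LC-only peak with a score of 156.07 within 3000 bp and an H3K4me3 peak in both HFSC lists. 3300002I08Rik and Gm20449 held 3 LC-only peaks each, and Cep57l1 held 2. Gm17635, Gm13151, D130040H23Rik and Gm9805 had one near the start. Each of the named genes with at least 2 LC-only peaks in its body also held an EA-HFSC peak, by the rule at other bases. The share of all genes, or of genes of like length, with an EA-HFSC peak was not computed.

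Part of the LC-only peaks lay in groups. With neighbours less than 100 kb apart joined, 308 of the 812 (37.9%, 34.7 to 41.3%) fell into 52 clusters of at least 3, close to the 251 of 602 shared peaks (41.7%, 37.8 to 45.7%) in 42 clusters of their own. The share was 20.9% with neighbours joined at less than 20 kb, and 0% when restricted to the 63 LC-only peaks scoring 100 or more. The median distance to the nearest other LC-only peak was 118236 bp, and 246 LC-only peaks had one within 10 kb. A shared peak lay within 10 kb of 202 LC-only peaks and within 100 kb of 347. Of the 52 clusters, 22 held a C2H2 gene, and these contained 157 LC-only peaks. A gene counted if it lay in the span, whether or not an LC-only peak lay in it. The same count was not made for clusters of shared peaks or for other stretches of the genome. Within clusters, 145 peaks (47.1%) were on both non-HFSC lists, 136 (44.2%) on non-EA-HFSCs alone, 7 on non-LC-HFSCs alone and 20 (6.49%, 4.24 to 9.82%) on neither.

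The 5 clusters with the most LC-only peaks lay on 5 chromosomes. The one on chromosome 17 (17337003 to 17499347) had 15 LC-only peaks in 162 kb, 1 of them in its only protein-coding gene, Gm6712. The one on chromosome 5 (110096779 to 110514715) had 15 in 418 kb. Its span held 5 C2H2 genes, Zfp932 among them, but only 2 of the LC-only peaks lay in them. The one on chromosome 4 (146606069 to 146961686) had 13 in 356 kb, with 5 of them in C2H2 genes such as Gm13152. All 3 also held shared peaks between the LC-only ones. On chromosome 13 (62276940 to 62613559) there were 12 in 337 kb, in a span with Zfp935, and 2 of them lay in C2H2 genes. On chromosome 2 (150054332 to 150249195) there were 12 in 195 kb, 8 of them in genes such as Zfp442 and Zfp937. In the chromosome 17 cluster LC-HFSC peaks covered 50.6 kb, EA-HFSC peaks 25.4 kb, non-EA-HFSC peaks 108 kb and non-LC-HFSC peaks 33.1 kb. Over the 5.78 Mb of all 52 clusters, LC-HFSC peaks covered 17.3%, EA-HFSC peaks 6.38%, non-EA-HFSC peaks 37.3% and non-LC-HFSC peaks 9.62%. Non-EA-HFSC peaks covered more than LC-HFSC peaks in 51 of the 52 clusters and EA-HFSC peaks in 0, but the clusters were built from LC-HFSC peaks that EA-HFSCs lack, so the order of these 2 was set in part by the rule. EA-HFSCs nevertheless had 513 peaks in the clusters, slightly more than the 467 of LC-HFSCs, each covering fewer bases.

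**Figure D4:**
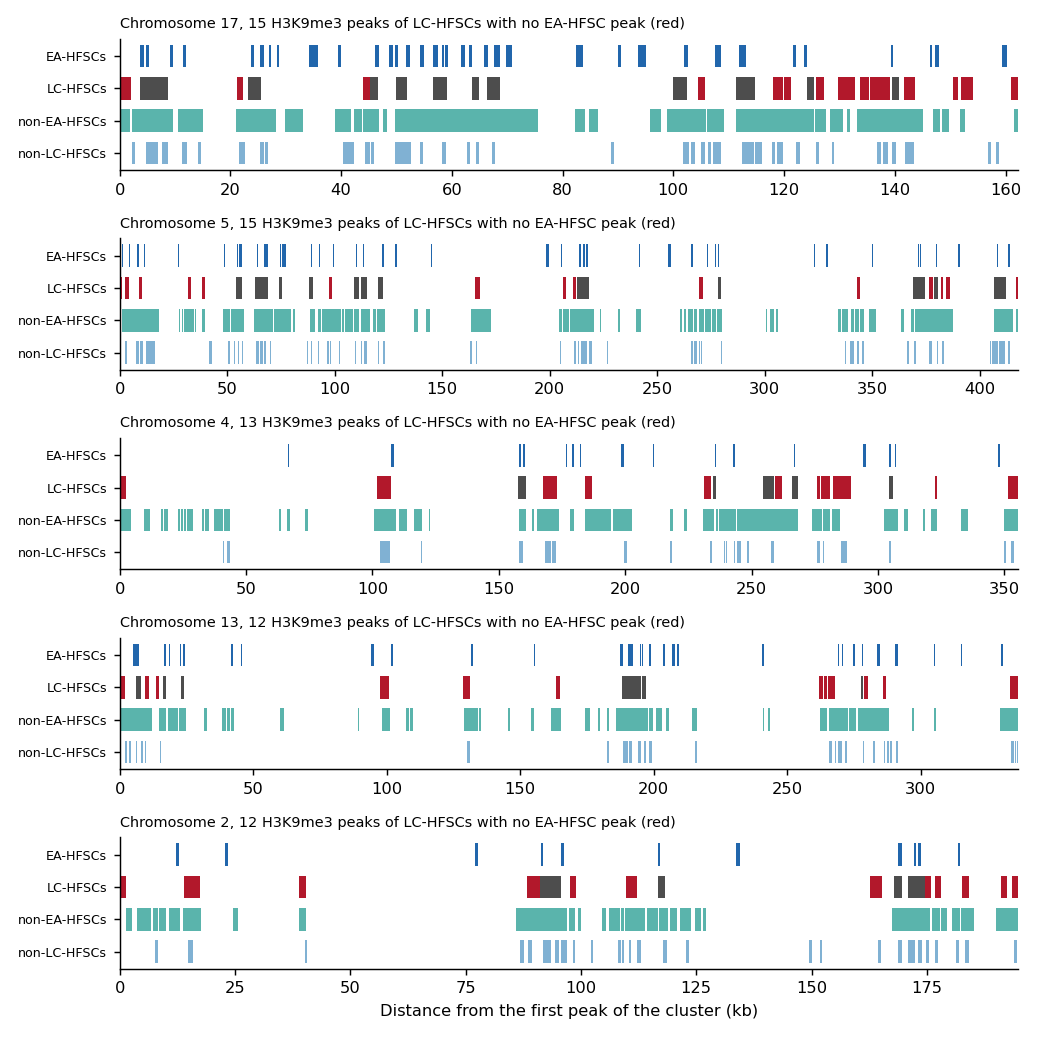
H3K9me3 peaks of the 4 populations (rows) in the 5 clusters with the most LC-only peaks, drawn to scale by distance from the first peak of the cluster (kb, horizontal axis). LC-only peaks are red and shared LC-HFSC peaks dark grey, and narrow EA-HFSC peaks lie between the red bars while broad non-EA-HFSC peaks run across most of them.

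In base composition LC-only peaks resembled the genome and not the anagen HFSC list. Their GC content was 42.3% and their CpG observed-to-expected ratio 0.187, close to the 41.8% and 0.191 of the genome and the 41.9% and 0.202 of shared peaks. EA-HFSC peaks had 49.5% GC and a CpG ratio of 0.449. Non-EA-HFSC peaks (42.5% and 0.190) were close to the LC-only set, and non-LC-HFSC peaks (46.1% and 0.287) lay between. Base composition thus differed between the lists, and its part in which regions were called was not tested.

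The sequence of LC-only peaks held the period of zinc finger exons. When each base of the middle 2 kb was compared with the base a fixed distance further on, the highest identity in LC-only peaks was at 84 bp, the length of one finger with its linker, with 28.0% identical bases against a median of 26.3% over distances from 20 to 300 bp. Smaller maxima followed at its multiples of 168 bp (27.6%) and 252 bp (27.3%). Shared peaks had the same distance with 30.0%, and genome tiles had 26.9% at 84 bp. The motif TGTGGNAAA, searched on both strands and overlapping no other motif searched, was found in the middle 2 kb of 179 of 760 LC-only peaks (23.6%, 20.7 to 26.7%), against 12.1% of all 2-kb tiles, 11.9% of EA-HFSC peaks and 31.4% of shared peaks. At least 1 pair of motifs 84 bp apart was present in 36 LC-only peaks (4.74%, 3.44 to 6.49%). Pairs were more frequent in shared peaks (9.78%, 7.62 to 12.5%), and present in 0.306% of EA-HFSC peaks and 0.0478% of tiles. Of the 36 LC-only peaks, 16 lay between annotated protein-coding genes (3.02% of 529) and 20 inside one (8.66% of 231). A match is a description of the sequence, and most LC-only peaks held no such pair.

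**Figure D5:**
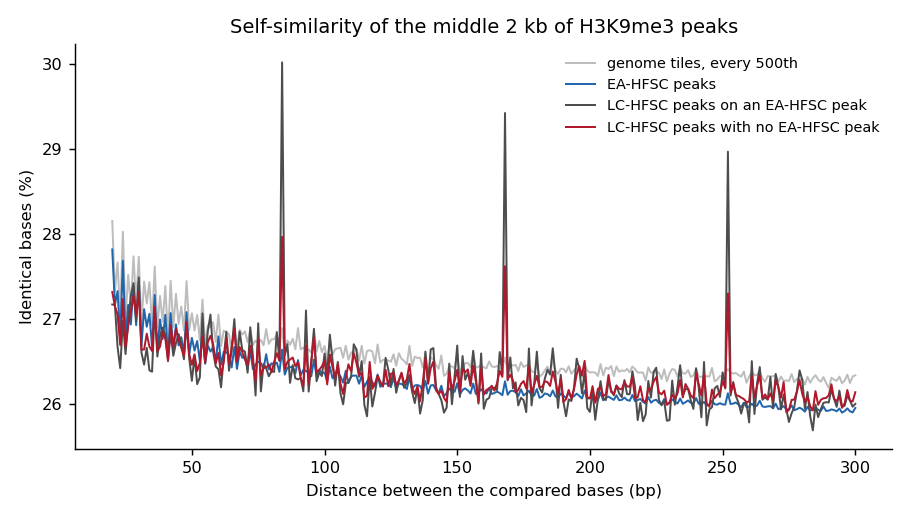
Share of identical bases (%, vertical axis, not starting at 0) between each base and the base a given distance further on (bp, horizontal axis) in the middle 2 kb of LC-only peaks, shared peaks, EA-HFSC peaks and every 500th genome tile. LC-only peaks have sharp maxima of 28.0, 27.6 and 27.3% at 84, 168 and 252 bp.

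LC-only peaks were also rich in sequence with a small number of copies. The middle 300 bases of 462 of the 760 (60.8%, 57.3 to 64.2%) occurred once in the placed genome at 90% identity over 80% of their length, those of 148 (19.5%) 2 to 10 times, of 105 (13.8%) 11 to 100 times and of 45 (5.92%) more often. In every 2000th genome tile, 85.8% were single, 4.53% had 2 to 10 copies, 2.97% had 11 to 100 and 6.72% more. Every 64th EA-HFSC peak gave 92.3% single. Shared peaks resembled LC-only peaks with 66.7% single. Among LC-only peaks, those on neither non-HFSC list were single in 75.3% (65.6 to 82.9%) and those on non-EA-HFSCs alone in 56.0% (50.6 to 61.3%). Counting whole peaks, 338 LC-only peaks (44.5%) shared at least 300 aligned bases at 80% identity with another LC-only peak. Joined pair by pair, they formed 30 families, of which the largest held 246 peaks on 20 chromosomes and the next 13. Peaks of a family need not all share 1 sequence, since a single LC-only peak shared sequence with at most 24 others. The same search was not made for shared peaks, EA-HFSC peaks or tiles. The authors removed reads of low alignment quality, and the part of such copies in the calls was not tested.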

How the data were processed

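ChIP-seq for H3K4me3, H3K9me3 and H3K27me3 was analysed in 4 populations, with 12 peak lists used. The 4 IgG samples served as the authors' background and have no list here. The authors trimmed single-end reads (Trimmomatic 0.22 in the submitters' processing notes), used Bowtie2 for alignment to mm9, filtered on alignment quality, pooled experiments and called peaks with MACS. The deposited score of each peak is the negative log10 of its p-value, multiplied by 10, with thresholds of 0.0001 for H3K9me3 and H3K27me3 and 1e-05 for H3K4me3. Read counts per peak were not used here.

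Overlap (at least 1 bp), distance, clusters and annotation were computed with Python 3.11.15 and numpy 2.4.6, copies with blastn 2.17.0 on the NCBIM37 genome (mm9) and GENCODE vM1. Positions are 1-based. The 52 LC-only peaks on unplaced sequence entered no step that needs genes or sequence. Overlaps were tested on simulated data, with 3 of 3 settings recovered on 5000 peaks. Wilson intervals (95%) and the limits given for a count of 0 (3 counts) cover counting error only, and neighbouring peaks are not independent. The members and gene lists were chosen with earlier results of these data known, and the C2H2 definition after the values were seen.

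Regions named, apart from 1 that is not reported here, were the 10 highest-scoring LC-only peaks, the 3 highest in each overlap class, the widest, those at the edge of the rule and the 5 largest clusters. Genes named were up to 25, by highest score, with 2 or more LC-only peaks in the body or one within 3000 bp of the start. Sequences shown were chosen as those of the 8 highest-scoring peaks on placed chromosomes. Alternatives were score thresholds of 50 and 100, autosomes only, merging peaks within 1 kb, a 1-kb margin, 50% overlap, lists of equal length, other cluster distances and all gene types.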

Additional observations from a re-analysis of the deposited data

How the results depend on the processing

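No paired analysis was possible because each population and mark has 1 list of pooled experiments, and for the same reason no replicate could be left out. Of the recomputed values, 17 stayed within the 95% interval of the reported value and 26 moved outside it. The share of LC-HFSC peaks without an EA-HFSC peak (57.4%) became 61.9% when every list was limited to scores of 50 or more, 78.1% with at least 100, 48.4% with a 1-kb margin, 87.7% when 50% of the LC-HFSC peak had to be covered and 98.8% with the 1414 top-scoring peaks of each list. It became 32.1% among LC-HFSC peaks scoring at least 100 set against complete lists. The share on non-EA-HFSC peaks (84.0%) became 87.5% and 91.5% at scores of 50 and 100 in every list, 93.7% for LC-only peaks scoring at least 100, and 49.7% with lists of equal length. On non-LC-HFSC peaks (43.7%) it became 32.7% at 100 in every list, 76.2% for LC-only peaks scoring at least 100, 22% with 50% overlap and 20.1% with lists of equal length. The share between genes (69.1%) became 59.7% and 58.3% under these 2 thresholds of 100, 65.3% with lists of equal length and 64.9% with all gene types. The share in clusters (37.9%) became 43.4% at a score of 50, 0% for LC-only peaks scoring at least 100, 28.4% with neighbours merged, 33.0% with a 1-kb margin, 46.0% with 50% overlap, 47.1% with lists of equal length, and 20.9% and 48.9% with clusters joined at 20 kb and 500 kb. Of these settings, lists of equal length and 50% overlap raised the share without an EA-HFSC peak most, and the score threshold on LC-HFSC peaks alone lowered it most. Fewer peaks enter at higher thresholds, and 50% overlap, which also enters the rule, leaves 1240 LC-only peaks. Otherwise the cause was not tested. Read counts per peak were not used and detection was not saturated, so a missing EA-HFSC peak is a call that did not pass the threshold and not a measured absence of H3K9me3.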
